A study of Mus musculus with 16 samples.

Results

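The miR-200 family was read as 5 mature miRNAs, mmu-miR-200a, mmu-miR-200b, mmu-miR-429, mmu-miR-200c and mmu-miR-141, found by name among the 577 miRNAs of each array. The members fall into 2 genomic clusters. Mouse chromosome 4 holds the 3 members miR-200b, miR-200a and miR-429, and chromosome 6 holds the 2 members miR-200c and miR-141. They also fall into 2 seed groups, which cut across the clusters. The AAUACUG seed is that of miR-200b, miR-429 and miR-200c, and the AACACUG seed is that of miR-200a and miR-141.

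A miRNA finds its target mRNAs mainly through its seed, the bases near the 5′ end that pair with sites in the 3′ untranslated region. Members of one cluster are made from a shared primary transcript, whereas members of one seed group share many predicted targets. The family is characteristic of epithelial cells, where it represses Zeb1 and Zeb2, transcriptional repressors of E-cadherin, and thereby opposes epithelial to mesenchymal transition. In skin it is found in the epidermis and the hair follicles.

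The mature sequences are shown because the comparison of clusters with seed groups rests on them. They were taken from RefSeq (GRCm38.p6) for all 5 members, and capitals mark the seed, bases 2 to 8 counted from the 5′ end.
miR-200b: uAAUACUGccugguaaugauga
miR-429: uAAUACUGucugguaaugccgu
miR-200c: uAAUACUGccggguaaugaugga
miR-200a: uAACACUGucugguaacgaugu
miR-141: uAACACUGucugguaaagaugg

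The first 3 carry one seed and the last 2 carry the other. Counted from base 1 at the 5′ end, with the base of the first-named miRNA given first, miR-200a and miR-200b differed in the seed by a single substitution, C4U. Within the AACACUG group, miR-141 differed from miR-200a at 2 of 22 bases, C17A and U22G, both outside the seed. Within the other group, miR-200c differed from miR-200b at 2 of 22 compared bases, U11G and A22G, and was 1 base longer. MiR-429 differed from miR-200b at 4 bases, C9U, A19C, U20C and A22U. Among the 1679 mature mouse sequences of the RefSeq table, the seed of miR-200b occurred in 3 and that of miR-200a in 2, which were the family members themselves.

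On the mm9 build, which the scanner files use, the positions listed for the probes were chromosome 4, 155429794 to 155429810 for miR-200b, 155429020 to 155429037 for miR-200a and 155428025 to 155428043 for miR-429. The listed positions on chromosome 6 were 124668342 to 124668357 for miR-200c and 124667935 to 124667951 for miR-141. All 5 miRNAs are on the minus strand. The chromosome 4 members lay within 1769 bases of each other and the chromosome 6 members 407 bases apart, and these distances were the same in the RefSeq table. In that table the chromosome 4 hairpins lie within the span of Gm13648, and the chromosome 6 hairpins lie in no listed gene, between Phb2 and Ptpn6. Each member was measured by 2 probes with 10 spots each. The listed spans begin at the 3′ end of the miRNA and cover 15 to 19 bases, so the probes read mainly the bases after the seed. Over the stretch that the longest probes of both miRNAs cover, miR-200a and miR-141 differ at 2 bases and miR-200b and miR-200c at 2 bases. Cross-hybridization between members was not tested.

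Dorsal skin RNA of 16 samples was hybridized, with 4 arrays in each of 4 groups: WT (Ppard+/+) and KO (Ppard-/-) mice, which have or lack the nuclear receptor PPARβ/δ, each without UV or after 12 weeks of UV. Irradiated animals received 70 mJ/cm2 of UVB 3 times a week. All groups share the background strain SKH1-C57/Bl6-SV129, a mixed background that includes the hairless albino SKH-1, and the methods describe females 8 to 12 weeks old, WT and KO being littermates, with non-lesional skin taken after UV and sham-handled controls of the same age. The methods give 4 animals per group, the labels tie no array to an animal, and p-values measure the spread between these samples.

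Total signal per array ranged from 170979 to 395200 units, and 184 to 266 miRNAs were detected per array. Ppard mRNA is not on these arrays, so the genotypes could not be checked. All irradiated samples were on one slide and all others on another, so that UV and slide cannot be told apart. The irradiated slide had the higher local background, 119 to 130 units against 63.3 to 65.8. On it WT arrays filled row 1 and KO arrays row 2, so that a fit with slide row estimates the row term from the other slide alone. Whole skin was measured, and fewer epithelial cells cannot be distinguished from less miRNA per cell.

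All 5 members were detected on all 16 arrays, and none had a saturated spot. Their total gene signals lay between 283 and 2390 units before normalization, with a scanner software error of 7.10% to 8.43% of each signal. MiR-203 and miR-205, miRNAs abundant in keratinocytes, were likewise detected on all 16 arrays, as the label of skin requires. Signals were then normalized between arrays and put on a log2 scale, on which a difference of 1 is a doubling, and the 228 miRNAs with a detection call throughout some group were fitted together in limma. Calls were made at 0.05 on p-values adjusted by Benjamini-Hochberg.

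**Figure D1:**
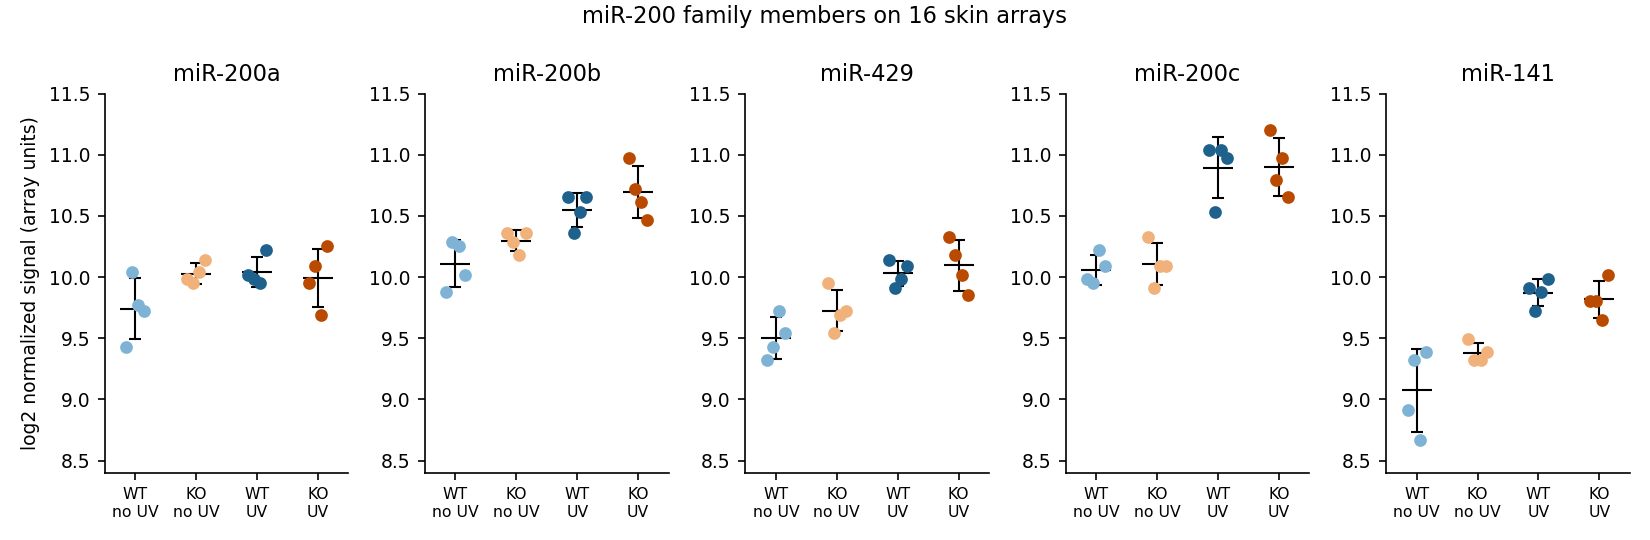
Log2 normalized signal of the 5 members (one panel each, same vertical scale) on every array, in WT and KO skin without UV and after UV. Points are arrays, horizontal bars are means of 4 arrays and error bars are SDs. Within each genotype, the irradiated arrays of miR-200c, miR-141 and miR-200b lie above the non-irradiated ones. Those of miR-429 do so in WT only, and the groups of miR-200a overlap.

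The first comparison asked how the family differed between irradiated and non-irradiated WT skin. After 12 weeks of UV, 4 of 5 members were higher, with miR-200c and miR-141, the chromosome 6 cluster, changing most. MiR-429 and miR-200b rose less, and miR-200a did not pass the test. Among all 228 miRNAs tested, 9.21% were called higher in this comparison. The median log2 change of the family was 0.53, against 0.00 for all miRNAs tested. The normalization holds the latter near 0.00, so it is no measured background. Without normalization the median of all miRNAs tested was 0.21.

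MiR-200c, the member that shares its seed with miR-200b and its transcript with miR-141, had log2 signals of 9.98, 9.95, 10.22 and 10.09 on the 4 WT no UV arrays and of 11.04, 10.53, 11.04 and 10.97 on the 4 WT UV arrays. Every irradiated array was above every non-irradiated one. The log2 change was 0.83 (95% interval 0.54 to 1.13, adjusted p = 0.000988), a 1.78-fold rise. Its cluster partner miR-141 had 8.91, 9.32, 8.67 and 9.39 without UV and 9.91, 9.72, 9.88 and 9.98 after UV. The groups did not overlap, although the non-irradiated arrays spread widely. The log2 change was 0.80 (0.51 to 1.10, adjusted p = 0.0012), a 1.74-fold rise.

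In the chromosome 4 cluster, miR-429 rose from 9.32, 9.43, 9.72 and 9.54 to 10.14, 9.91, 9.98 and 10.09. The groups did not overlap, and the log2 change was 0.53 (0.28 to 0.78, adjusted p = 0.00683). MiR-200b had 9.88, 10.29, 10.25 and 10.02 without UV and 10.65, 10.36, 10.53 and 10.65 after UV, again without overlap. Its log2 change was 0.44 (0.19 to 0.68, adjusted p = 0.0175). MiR-200a, transcribed with both, had 9.43, 10.04, 9.77 and 9.72 without UV and 10.02, 9.98, 9.95 and 10.22 after UV. One non-irradiated array lay within the irradiated range, and the log2 change of 0.30 (0.02 to 0.58) was not called (adjusted p = 0.123). The groups thus failed to overlap for 4 of 5 members, against 13.6% of all miRNAs tested that were higher without overlap. The call of miR-200b was lost with slide row as a covariate, at a nearly equal log2 change of 0.435 (adjusted p = 0.0511), and without WT UV replicate 1 (0.0598) or WT no UV replicate 4 (0.0518). MiR-200a was called without WT no UV replicate 2 (log2 change 0.40, adjusted p = 0.0485), with scaling by the 75th percentile over all miRNAs (0.44, adjusted p = 0.0334) and without normalization (0.70, adjusted p = 0.0373), where the median of all miRNAs tested moved by 0.21.

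The same comparison in KO skin gave the same 4 called members, miR-200c, miR-141, miR-200b and miR-429, all higher, where 18.4% of all miRNAs tested were called higher. The median log2 change of the family was 0.39. MiR-200c again changed most, and the other 3 changed by similar, smaller amounts. MiR-200a was not called, and the direction of its change was not resolved.

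MiR-200c had 10.33, 9.91, 10.09 and 10.09 on the KO no UV arrays and 11.20, 10.79, 10.97 and 10.65 on the KO UV arrays, which all lay higher. The log2 change was 0.80 (0.50 to 1.10, adjusted p = 0.00249), a 1.74-fold rise. MiR-141 had 9.49, 9.32, 9.32 and 9.39, and 9.80, 9.80, 9.65 and 10.02 after UV, without overlap. Its log2 change was 0.44 (0.14 to 0.73, adjusted p = 0.0319).

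MiR-200b had 10.36, 10.29, 10.18 and 10.36 without UV and 10.97, 10.72, 10.61 and 10.47 after UV. These groups did not overlap either, and the log2 change was 0.39 (0.15 to 0.64, adjusted p = 0.0236). MiR-429 had 9.95, 9.54, 9.69 and 9.72 without UV and 10.33, 10.18, 10.02 and 9.85 after UV, so that 1 irradiated array lay below the highest non-irradiated one. Its log2 change was 0.37 (0.12 to 0.62, adjusted p = 0.0319). MiR-200a had 9.98, 9.95, 10.04 and 10.14 without UV and 9.95, 10.09, 9.69 and 10.25 after UV. The irradiated arrays surrounded the others, and the log2 change was -0.03 (-0.31 to 0.25, adjusted p = 0.914).

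Irradiated and non-irradiated KO arrays thus did not overlap for 3 of 5 members, against 11.8% of all miRNAs tested that were higher without overlap. With slide row as a covariate miR-200c stayed called (log2 change 0.76, adjusted p = 0.0130). MiR-200b (0.40, adjusted p = 0.0686), miR-141 (0.47, adjusted p = 0.0686) and miR-429 (0.31, adjusted p = 0.108) were not called, although the changes of miR-200b and miR-141 were no smaller than without the covariate. Only miR-200c stayed called without KO UV replicate 1, KO UV replicate 2, KO no UV replicate 2 or KO no UV replicate 3. MiR-141 also lost its call without KO UV replicate 4 (0.0684) and miR-429 without KO no UV replicate 4 (0.0508). Skeletal muscle miRNAs moved in the same comparison. All 4 of 4 tested, of 5 listed, were called lower after UV in KO skin, where 11.4% of all miRNAs tested were, with a median log2 change of -1.04, and the summed level of the list ranged from 40651 to 50328 units in KO no UV skin and from 19469 to 24495 in KO UV skin. In WT skin none of the 4 was called between irradiated and non-irradiated arrays, with sums of 20446 to 41168 without UV and 21898 to 25989 after it. The part of muscle tissue in the family's values was not tested.

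**Figure D2:**
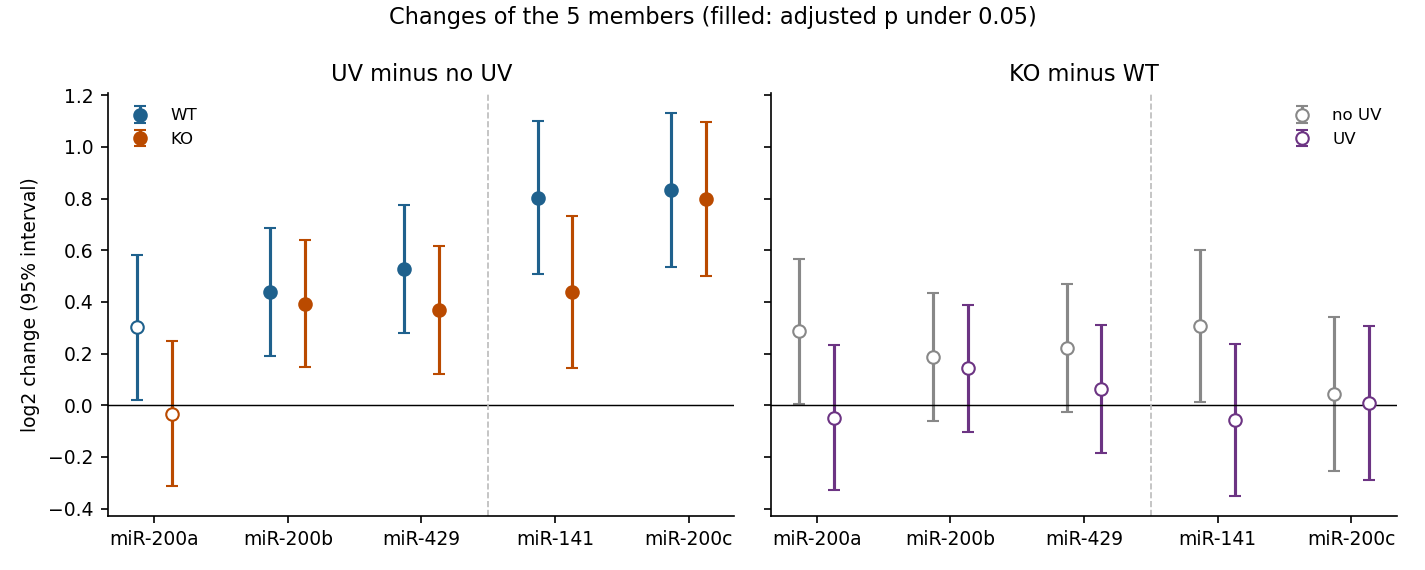
Log2 change of each member with its 95% interval, for UV minus no UV in WT and KO (left) and KO minus WT without UV and after UV (right). Filled points passed an adjusted p of 0.05, and the dashed line separates the chromosome 4 cluster from the chromosome 6 cluster. All filled points are UV changes above 0, and no KO minus WT change was called.

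The genotype comparisons asked whether the family depended on PPARβ/δ. Without UV, KO minus WT changes in these data were above 0 for all 5 members, from 0.04 for miR-200c to 0.31 for miR-141, but limma called 0 of them. The intervals allow log2 changes up to 0.60 for miR-141 and 0.57 for miR-200a. Among all miRNAs tested 0.00% were called, while 15.8% fell below 0.05 before adjustment. Of the members 2 did so, miR-200a (log2 change 0.29, adjusted p = 0.288 in limma) and miR-141 (adjusted p = 0.288), for which exact permutation tests gave p = 0.114 and p = 0.257. WT and KO arrays overlapped for all 5 members, whereas 2.63% of all miRNAs tested did not overlap. Leaving out the 11 tested miRNAs that were at the floor on every array, 10 miRNAs were called, of which 0 were members.

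After UV the KO minus WT changes lay closer to 0, from -0.06 for miR-141 to 0.14 for miR-200b. None of the 5 was called, against 2.19% of all miRNAs tested, and 0 fell below 0.05 before adjustment, against 9.21%. The smallest exact permutation p among the members was 0.314. The intervals reached from -0.35 to 0.24 for miR-141 and from -0.10 to 0.39 for miR-200b. WT and KO arrays overlapped for all members, against 6.14% of all miRNAs that did not. Each genotype fills a slide row of its own here, and with slide row as a covariate the changes of miR-429 (-0.05), miR-200c (-0.07) and miR-141 (0.01) took the opposite sign. The row term came from the non-irradiated slide alone, so the fit cannot separate row from genotype on the irradiated slide.

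Whether the UV change itself differed between genotypes was tested as the UV change in WT minus that in KO. The difference was 0.36 for miR-141 (-0.05 to 0.78, adjusted p = 0.498) and 0.33 for miR-200a (-0.06 to 0.73, adjusted p = 0.498), the members of one seed group. It was 0.16 for miR-429, 0.04 for miR-200b and 0.04 for miR-200c. None of the 5 was called by limma, against 2.19% of all miRNAs tested, and before adjustment 0 fell below 0.05, against 12.7%. That miR-141 rose by 0.80 in WT and 0.44 in KO is therefore not shown to be a difference between genotypes, with exact permutation p = 0.107 over 4900 regroupings of genotype within irradiation state (adjusted 0.619).

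Differences between members on the same array are free of any scaling between arrays and were taken from the signals before normalization, as a description with no test. The mean of miR-200c and miR-141 minus the mean of the 3 chromosome 4 members was -0.06, -0.25, -0.47 and -0.0007 log2 units on the WT no UV arrays and -0.20, -0.22, -0.26 and -0.27 on the KO no UV arrays. It was 0.11, 0.06, 0.25 and 0.10 on the WT UV arrays and 0.07, 0.07, 0.19 and 0.13 on the KO UV arrays. All 8 irradiated arrays were above 0 and all 8 others below 0. The shift was 0.33 in WT and 0.35 in KO. On average the chromosome 6 cluster therefore rose more than the chromosome 4 cluster in both genotypes, and the slide of the irradiated arrays cannot be told apart from UV in it. Single pairs did not all show it. MiR-141 minus miR-200b shifted by 0.28 in WT and 0.08 in KO, and miR-141 minus miR-429 by 0.30 and 0.08, with overlapping arrays in each case. In the series table of the authors these KO shifts were -0.0137 and -0.0003. MiR-200c minus miR-200a shifted by 0.42 in WT, without overlap, and by 0.75 in KO, where arrays overlapped.

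The shift between clusters was present within each seed group. In the AAUACUG group, miR-200c minus miR-429 rose from 0.50 ± 0.09 (SD, n = 4) to 0.75 ± 0.12 in WT and from 0.40 ± 0.09 to 0.78 ± 0.06 in KO. MiR-200c minus miR-200b shifted by 0.24 in WT and 0.38 in KO, and neither difference overlapped between irradiated and non-irradiated arrays in either genotype. In the AACACUG group, miR-141 minus miR-200a rose from -0.59 ± 0.38 to -0.12 ± 0.09 in WT, where arrays overlapped, and from -0.60 ± 0.10 to -0.15 ± 0.09 in KO, where they did not.

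The pair that shares both cluster and seed hardly differed between groups in its ratio. MiR-429 minus miR-200b was -0.54 ± 0.09 (SD, n = 4) without UV and -0.56 ± 0.02 after UV in WT, and -0.57 ± 0.05 and -0.58 ± 0.05 in KO, with overlapping arrays throughout. The 2 seed groups moved apart less clearly than the clusters. The mean of miR-200b, miR-200c and miR-429 minus the mean of miR-200a and miR-141 shifted with UV by 0.03 in WT and by 0.27 in KO, and the groups overlapped in both.

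**Figure D3:**
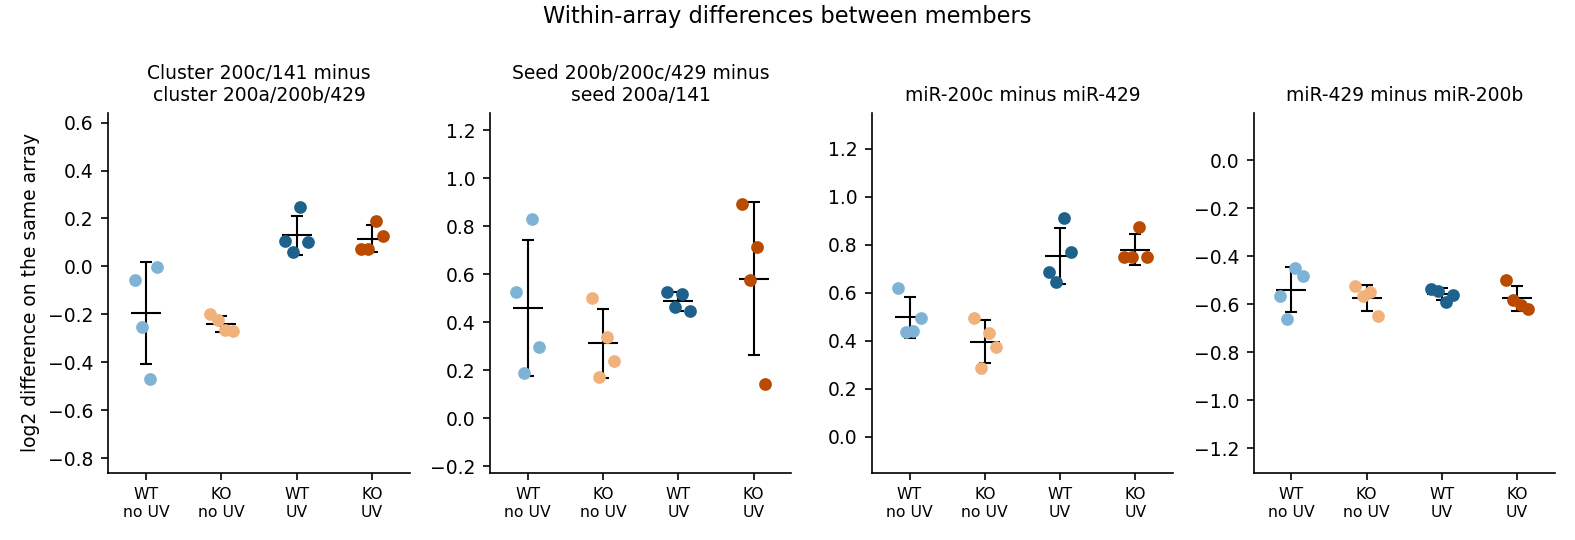
Log2 difference between members on the same array, before normalization, for the clusters, the seed groups, miR-200c minus miR-429 and miR-429 minus miR-200b (panels span equal heights but start at different values). Points are arrays, bars are means and error bars are SDs of 4 arrays. The cluster difference and miR-200c minus miR-429 are higher on all irradiated arrays, and the other panels overlap.

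Around their group means, arrays varied in another way. With the group mean of each member removed, the 16 arrays gave Pearson correlations within the AAUACUG group of 0.79 for miR-429 with miR-200c, 0.74 for miR-200b with miR-429 and 0.63 for miR-200b with miR-200c. MiR-200a and miR-141, on different chromosomes but with one seed, had 0.53. Across seed groups the 6 correlations lay between -0.21 and 0.33, including -0.05 for miR-200c with its cluster partner miR-141. These values are a description over 16 arrays that share slides and normalization. Under the longest probes of both, miR-200a and miR-141 differ at 2 bases, as do miR-200b and miR-200c. MiR-429 differs there from miR-200b at 4 bases and from miR-200c at 5, while pairs across seed groups differ at 3 or 4. The part of cross-hybridization in these correlations was not tested.

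**Figure D4:**
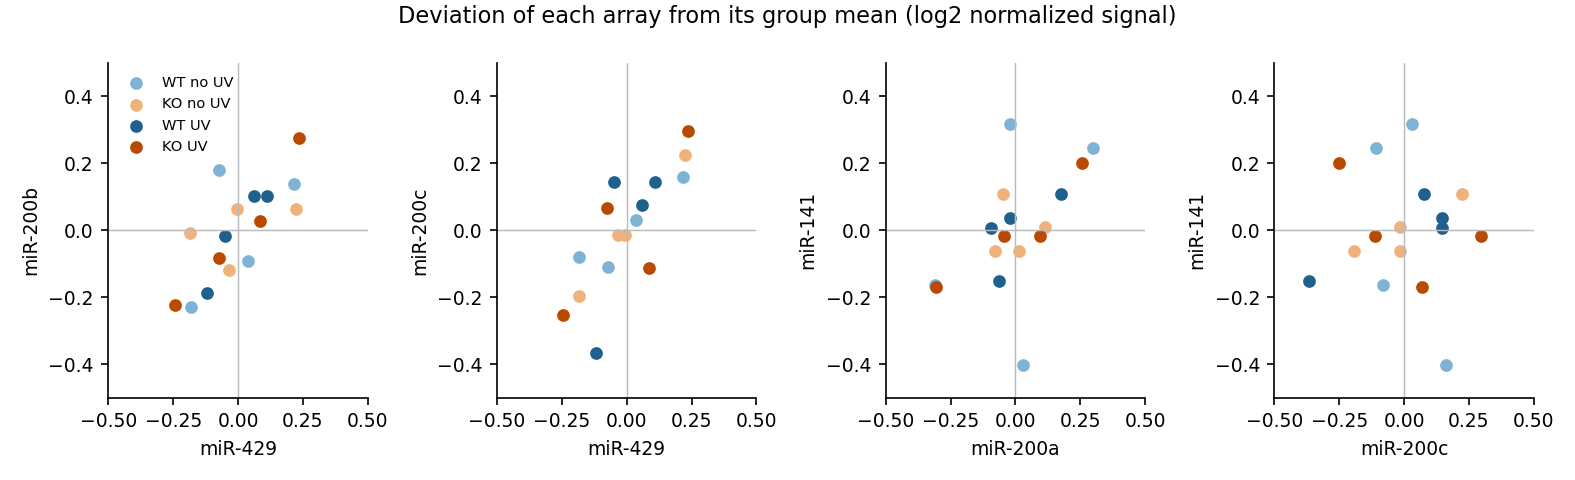
Deviation of each of the 16 arrays from its group mean (log2 normalized signal) for 4 pairs of members, both axes on the same range. Points are arrays, coloured by group. MiR-429 goes with miR-200b and with miR-200c, miR-200a and miR-141 go together less closely, and miR-200c and miR-141 show little relation.

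The 2 probes of each member gave changes of the same sign after UV in WT skin, from 0.22 and 0.34 for miR-200a to 0.83 and 0.84 for miR-200c. The largest gap between the probes of a member in a UV comparison was 0.31, for miR-200a in KO skin, where one probe changed by 0.06 and the other by -0.25. The passenger strands, the other arms of the same hairpins, were near or below the floor of 4.28 on the log2 scale. MiR-200c* was detected on 0 arrays, and miR-200b* lay at the floor on all 16. MiR-141* was detected on 4 of 4 arrays in each irradiated group and on 2 of 4 WT no UV and 4 of 4 KO no UV arrays, with signals of at most 26.4 units. MiR-200a* was detected on 4 of 4 KO no UV arrays, on 2 of 4 WT no UV arrays and on 0 of 4 arrays in each irradiated group. Its signals did not follow these calls in WT skin, with 10.2 to 17.0 units without UV and 13.7 to 23.1 after it. In KO skin they were 17.7 to 35.9 and 11.6 to 16.2. The SD of the negative control spots was 9.10 to 10.3 units on the irradiated slide and 3.66 to 4.25 on the other, so detection calls are not alike between slides. None of the 3 passenger strands tested was called in any comparison.

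A list drawn up as epithelial gave context for the family. Whether each miRNA on it is particular to epithelium was not tested. Of its 10 miRNAs, chosen with results of these data known, 2 were called higher after UV in WT skin, where 9.21% of all miRNAs tested were. They were miR-183 (log2 change 0.84) and miR-96 (0.51), which come from one cluster of sensory and epithelial miRNAs. Their cluster partner miR-182 changed by 0.33 without passing the test. In KO skin 7 of 10 were called higher, where 18.4% of all miRNAs tested were, again with miR-183 (0.77), miR-96 (0.50) and miR-182 (0.47). The keratinocyte miRNAs miR-203, which restrains proliferation in the differentiating epidermis, and miR-205, an epidermal progenitor miRNA, changed by 0.59 and 0.32 in KO skin and by 0.30 and 0.03, uncalled, in WT skin. MiR-31, which rises in wounded and hyperplastic epidermis, changed by 1.30 in KO and 0.71, uncalled, in WT (adjusted p = 0.0558). MiR-34a, a p53 target, rose by 0.45 in KO, from a mean log2 level of 9.96 to 10.41. In WT skin it was uncalled, with means of 10.34 without UV and 10.47 after UV.

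The remaining 3 of the list, miR-27b, miR-24 and miR-26a, were called in neither genotype, with log2 changes of 0.00, -0.18 and 0.00 in WT and 0.14, 0.08 and -0.07 in KO. The median of the list was 0.21 in WT and 0.46 in KO. None of the 10 was called in the test of the difference between genotypes. The summed level of miR-203 and miR-205 ranged from 17773 to 20852 units in WT no UV, from 20466 to 24801 in WT UV, from 17460 to 22714 in KO no UV and from 22714 to 36820 in KO UV skin. The share of epithelium in the samples was not measured, and its part in the family's rise was not tested.

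**Figure D5:**
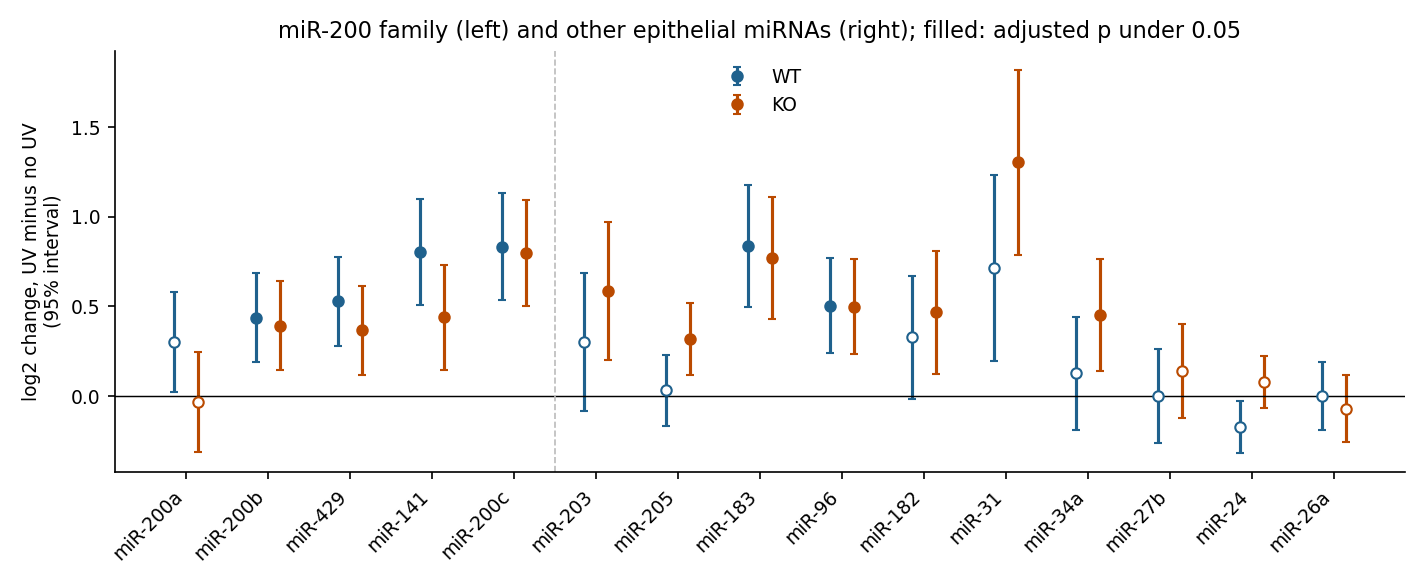
Log2 change, UV minus no UV, with its 95% interval in WT and KO for the 5 members (left of the dashed line) and the 10 miRNAs of the epithelial list. Filled points passed an adjusted p of 0.05. Beside 4 members, miR-183 and miR-96 were called in both genotypes, and 5 more of the list were called in KO.

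Of 13 miRNAs on the array from a list drawn up as mesenchymal, 2 were called lower after UV in WT skin, miR-145 and miR-29c. Among all miRNAs tested 7.02% were lower. The list includes miR-21, whose passenger strand the paper located in the epidermis and hair follicles. Whether each miRNA of the list is particular to mesenchymal cells was not tested. In KO skin 4 of the 13 were called lower, where 11.4% of all miRNAs were lower, and 2 were called higher, where 18.4% were higher. Lower were miR-145 (log2 change -1.66) and miR-143 (-0.79), abundant in smooth muscle, miR-29c (-0.46), which represses collagen genes, and miR-10b (-0.30). Higher were miR-21 (0.68), which is induced in inflamed and proliferating tissue, and miR-214 (0.32). Quantile normalization gives equal ranks one value, and miR-21 held the same value on all WT UV arrays (mean 14.59, SD 0.00). The skeletal muscle miRNA miR-1, also named after its values were seen, held that value on all KO no UV arrays. The sizes of the changes of miR-21 and miR-1 are therefore limited by rank. The median of the list was -0.12 in WT and -0.25 in KO, against 0.53 and 0.39 for the miR-200 family. Of 7 leukocyte miRNAs, 3 were called lower after UV in WT skin, miR-150, miR-342-3p and miR-146a, where 7.02% of all miRNAs tested were lower. The miRNAs of this and the next lists were named after their values were seen. The summed level of the leukocyte list went from between 5326 and 7081 units to between 4147 and 4966. In KO skin 1 of the 7 was called higher, miR-155 (log2 change 0.65), where 18.4% of all miRNAs tested were. Another 1 was called lower, miR-150 (-0.56), where 11.4% were. The sums were 3433 to 5425 units without UV and 3485 to 4103 after it. Of 2 endothelial miRNAs, miR-126-3p was called higher by limma after UV in WT skin (log2 change 0.46, adjusted p = 0.000599), where 9.21% of all miRNAs tested were. It was not called in KO skin (0.01). In the limma test of the difference between genotypes, where 2.19% were called, it was called (0.45, adjusted p = 0.0345). The other endothelial miRNA, miR-126-5p, was called in neither genotype. Its mean log2 level was 6.11 without UV and 5.87 after UV in WT skin, and 6.46 and 5.91 in KO skin. The median log2 change of the list after UV was 0.11 in WT and -0.27 in KO. The sum of the endothelial list ranged from 1599 to 2011 units in WT no UV, from 2251 to 2633 in WT UV, from 2114 to 2564 in KO no UV and from 2244 to 2288 in KO UV skin. Of 3 erythrocyte miRNAs 2 were tested, and miR-486 was called lower in KO skin after UV (-0.86), where 11.4% of all miRNAs tested were. The other tested, miR-451, was called in neither genotype. Its mean log2 level was 10.44 without UV and 10.39 after UV in KO skin, and 10.08 and 10.42 in WT skin. The sums of the erythrocyte list were 1334 to 1809 units in KO no UV and 747 to 2092 in KO UV skin. In WT skin they were 933 to 1398 without UV and 860 to 2184 after it. The part of these other cell types in the family's values was not tested.

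Over the 16 arrays, the levels of the members were set against those of the 162 other miRNAs detected on every array, as a description over arrays that share slides and normalization. Closest to miR-200b were miR-96 (Pearson's r = 0.94, Spearman's rho = 0.94), miR-183 (0.92, 0.92) and miR-28 (0.83, 0.82). MiR-183 and miR-28 were also among the 3 closest to miR-429 (r = 0.90 and 0.85) and to miR-200c (r = 0.89 and 0.89), followed by miR-96 for miR-429 (0.84) and by miR-34b-5p for miR-200c (0.86). For miR-141 they were miR-130a (0.88), miR-301a (0.86) and miR-101b (0.82), and for miR-200a miR-193 (0.68), miR-30a (0.61) and miR-130a (0.56). With the group means taken out, miR-96 and miR-183 still went with miR-200b at 0.79 and 0.72, whereas miR-34b-5p went with miR-200c at -0.05. MiR-28 went with miR-200b, miR-429 and miR-200c at 0.37, 0.39 and 0.37. MiR-183 went with miR-429 at 0.62 and with miR-200c at 0.46, and miR-96 with miR-429 at 0.405. The values were 0.511 to 0.715 for the 3 closest to miR-141 and 0.266 to 0.595 for those closest to miR-200a.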

How the data were processed

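The deposited scanner files hold intensity values, from which, per the file headers, Agilent Feature Extraction 9.5.3.1 subtracted background and formed a total gene signal per miRNA; no normalization between arrays had been applied. A table of log2 values, deposited after normalization by the authors (invariant set and quantiles) and with an unstated offset, covers the series; each of its 16 columns matched its own array best (Spearman at least 0.999; column medians 3.63 to 3.67), and it served as an alternative. Signals were quantile normalized over 16 arrays and raised to a floor of 19.4 units (log2 4.28), the 5th percentile of detected miRNAs on the median array. One group-means fit (limma 3.58.1, R 4.3.3) of 228 miRNAs, detected on all 4 arrays of a group, gave 5 contrasts, without a replicate block. Of these, 11 were at the floor throughout. The fit was tested on simulated data. Exact permutation tests were two-sided and cannot go below 0.0286 with 4 against 4 arrays. The members and lists, and the rules for naming miRNAs (members, passenger strands, the 3 most alike, the epithelial list, called mesenchymal miRNAs), were chosen with earlier results of these data known. The number of arrays limits the precision. Alternatives changed the scaling, signal, filter, floor, covariates, arrays and test.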

Additional observations from a re-analysis of the deposited data

Results flagged for a closer look

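In groups of 4 arrays, a highest or lowest array was marked when its gap to the next passed Dixon's 95% critical value, taken as a share of the group's range, which chance does in about 1 of 20 groups. Of 60 groups checked (the 5 members and the 10 miRNAs of the epithelial list), 8 were marked. A single one concerned a family member. MiR-200c on WT UV replicate 2 was 10.53, below the other arrays at 10.97 to 11.04 (gap over range 0.855), and without this array its KO minus WT change after UV was -0.11 instead of 0.01.

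WT UV replicate 4 was the highest of its group for miR-203 (13.88, the others at 13.58, ratio 1), miR-26a (12.62 against 12.53, ratio 1) and miR-183 (7.13 against 6.93 to 6.96, ratio 0.842). KO UV replicate 4 was highest for miR-27b (11.94 against 11.33, ratio 1), WT no UV replicate 4 for miR-24 (13.06 against 12.85, ratio 1) and WT no UV replicate 3 for miR-26a (12.62 against 12.53, ratio 1). KO no UV replicate 3 was lowest for miR-24 (12.53 against 12.78, ratio 1). A ratio of 1 means that the other 3 arrays held one identical value, which quantile normalization gives to equal ranks. None of the 15 miRNAs was called in the test of the difference between genotypes.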

How the results depend on the processing

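Results are given as the number of the 5 members called in limma and as log2 changes. In WT skin the UV comparison (4 called) gave 2 by the methods' selection (p under 0.001 and 1.5-fold) and 0 after normexp background correction, and the call of miR-200b was also lost with the arrays of the 2 groups alone (adjusted p = 0.0517). MiR-200a was called in WT with the 75th percentile of all miRNAs (0.44, adjusted p = 0.0334) and without normalization (0.70, adjusted p = 0.0373). In KO skin (4 called) it gave 1 with the 75th percentile of miRNAs detected on all arrays, 0 without normalization, 0 after normexp, 1 with slide row as covariate, 2 from the arrays of the 2 groups alone, 1 by the methods' selection and 1 to 4 with one array left out. Adjusted exact permutation p-values called 0 in either genotype, but the smallest p of 0.0286 that 4 against 4 arrays allow gave 0.133 and 0.142 after adjustment, so that this count says nothing on stability. Without normalization 5 members were called in KO minus WT without UV and 5 in the difference of UV changes, where the median of all miRNAs moved by 0.52 and 0.77. The normexp fit was bent by spots of local background above signal, most on WT no UV replicates 2 and 3 and on KO UV replicate 1. Such spots also moved it, by less, on WT UV replicate 4 and KO no UV replicate 1. Without those spots, a choice made after seeing the data, 4 members were called in each UV comparison. The replicate block left the members' calls at 4 and 4 for UV and 0 elsewhere, and not every same-numbered pair of arrays deviated together, so that the numbers were not taken as pairs. Same-number correlations ran from -0.348 to 0.378 (median 0.161, 15 of 24 over 0.1) and others from -0.618 to 0.745 (median -0.053, 18 of 72 over 0.1), and on the irradiated slide the number is also the slide column. Over all miRNAs it gave 1 call in place of 5 in the difference of UV changes.

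Signs turned in values that were not called, except those in KO skin without normalization. After UV, KO minus WT became 0.036 for miR-200a and 0.014 for miR-141 (75th percentile of detected miRNAs), 0.0031 for miR-200a (of all miRNAs), -0.19, -0.21 and -0.18 for miR-200b, miR-429 and miR-200c (no normalization), and -0.049, -0.070 and 0.0092 for miR-429, miR-200c and miR-141 (slide row). With one array left out it ran from -0.13 to 0.054 for miR-200a, from -0.016 to 0.14 for miR-429 and from -0.11 to 0.096 for miR-200c, and without UV from -0.029 to 0.11 for miR-200c. The UV change in KO became 0.010 and 0.11 for miR-200a under the percentile scalings and -0.088, -0.092 and -0.0069 for miR-200b, miR-429 and miR-141 without normalization, where the median of all miRNAs moved by -0.48, and with one array left out miR-200a ran from -0.12 to 0.068. The difference of UV changes for miR-200c was -0.020 with the 75th percentile of detected miRNAs, and with one array left out it ran from -0.052 to 0.15, and from -0.0315 to 0.13 for miR-200b. In the authors' series table, miR-200c minus miR-200b differed between KO and WT after UV by -0.12.

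Calls over all miRNAs in KO minus WT without UV (0) ranged up to 16 with one array left out and 111 without normalization, those after UV (5) down to 0, and those in the difference of UV changes (5) from 0 to 138. In the UV comparisons, WT calls (37) ranged from 2 with normexp to 58 in the series table, and KO calls (68) from 16 to 130. The causes were not tested. Signal limits the passenger strands, near the floor, and not the members.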
